A study of Mus musculus with 2 samples.

Results

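Collagen and laminin chains, the building blocks of fibrils and basement membranes, were followed between 2 RNA libraries from wild-type (WT) C57BL/6 mouse brain. One library came from total homogenate of whole brain and the other from the synaptosome-enriched fraction collected by Percoll gradient centrifugation. The comparison thus asks which chain mRNAs are present, and how strongly, in a fraction prepared to enrich nerve endings. RNA of other cells was also in that fraction: astrocyte markers had a higher median ratio than neuronal markers, as given below. The labels used here give no age, sex or number of brains per library. The chains were found by gene symbol (Col, a number, a and a number, or Lama, Lamb or Lamc and a digit), which matched 54 of 23329 genes. Of these, 50 had at least 20 counts summed over both libraries and are given with ratios. The homogenate held 15210838 estimated counts and the synaptosome fraction 13709528, of which the 54 chains took 15256 and 10708. With 1 library per fraction, biological variation was not measured and p-values are left out. All intervals below are exact 95% intervals for counting error alone.

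Collagens are trimers of chains that wind around each other along a glycine-rich repeat, and laminins are cross-shaped trimers of 1 alpha, 1 beta and 1 gamma chain. Type IV collagen forms a sheet-like network that, with laminin, nidogen and perlecan, makes the basement membrane. In brain, basement membranes surround every vessel and underlie the pia, and endothelial cells, pericytes, astrocytes and meningeal fibroblasts all contribute chains. Fibrillar collagens form cross-banded fibres and are made mainly by fibroblasts of the meninges and of larger vessels, while a few collagens, such as the transmembrane collagen Col25a1, are made by neurons. In bulk RNA, fewer cells of a type and less RNA per cell cannot be told apart.

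Basement membrane and fibrillar chains differed in their typical ratio, but both classes were split internally. The 16 measured type IV collagen and laminin genes had a median log2 ratio (synaptosome fraction over homogenate) of 0.45, and the 11 fibrillar collagen genes had a median of -1.0. The rule of size asks for a ratio of at least 2-fold and a counting interval that excludes 1. By it, 4 of the 16 basement membrane genes were higher (25%) and 0 lower. Of the 11 fibrillar genes, 2 were higher (18.2%) and 5 lower (45.5%). On 16 genes, 0 lower is near the 9.37% lower among all genes. Over all 50 chains, 8 were higher (16%) and 10 were lower (20%), and the median was -0.17. Among all 14649 genes with at least 20 counts, 12.6% were higher and 9.37% lower, and their median was -0.02. The 12032 genes within the chains' own range of counts had a median of -0.10, with 9.82% higher and 10.5% lower. Ratios were scaled with TMM, which sets the typical gene near 1. With plain library totals every log2 ratio moved by -0.49, 0 chains were higher and 19 were lower, against 4.44% and 25.9% of all genes, so each ratio is relative to the typical gene. The 19 included the basement membrane genes Lama3, Lama5 and Col4a1, at -1.45, -1.24 and -1.07.

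**Figure D1:**
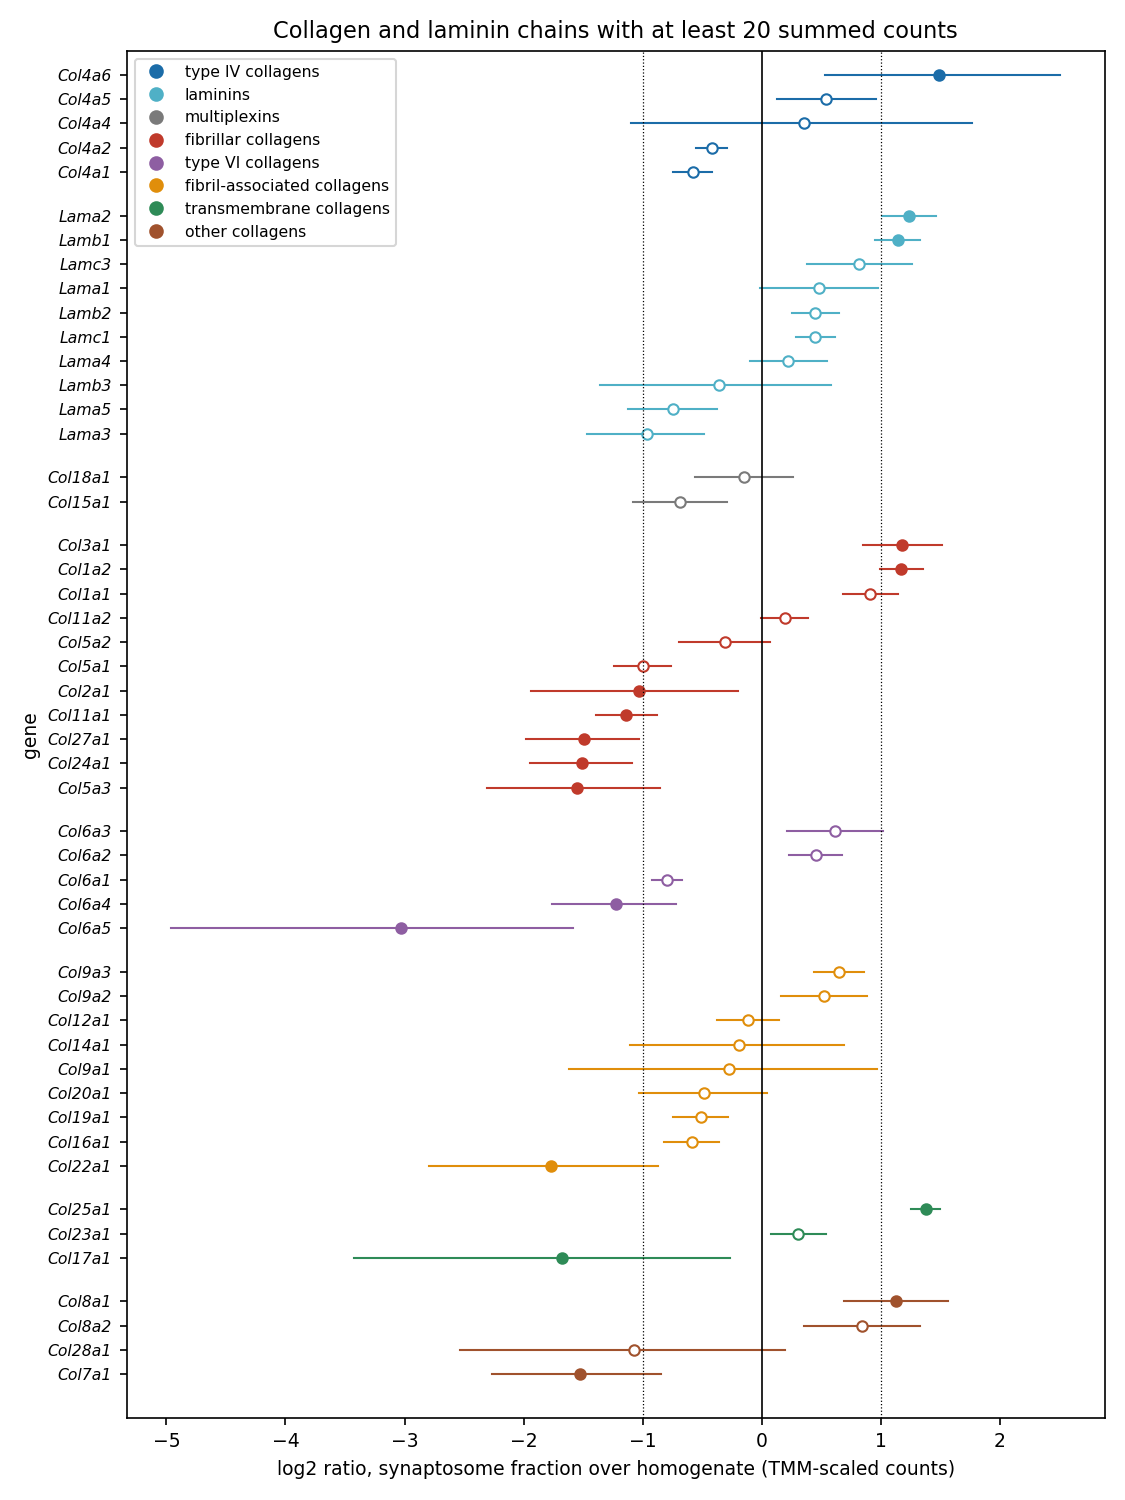
Log2 ratio of 49 of the 50 measured chains (x axis, synaptosome fraction over homogenate), grouped by class (y axis); lines are 95% counting intervals, filled circles passed the rule of size and dotted lines mark 2-fold. Laminins lie mostly right of 0, and fibrillar collagens fall into a group of 3 chains near 1 and a group at or below -1, with Col11a2 and Col5a2 between.

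The type IV collagen network of brain vessels is built mainly from the chains Col4a1 and Col4a2, and both were somewhat lower in the synaptosome fraction. Col4a1 (mm10 chromosome 8, 11198423 to 11312826) had 1012 homogenate counts and 434 synaptosome counts, 1.49-fold lower (1.33 to 1.67). Col4a2 (chromosome 8, 11312829 to 11449287) had 1483 and 710 counts, 1.34-fold lower (1.22 to 1.46). The genes lie head to head with start sites 3 bases apart in the files' annotation, and their chains are known to assemble as a pair of Col4a1 chains with 1 Col4a2 chain. The ratio of Col4a1 was 0.896 times that of Col4a2 (0.774 to 1.04), an interval that includes 1. Per transcript length, the level of Col4a1 was 0.662 of that of Col4a2 in homogenate and 0.593 in synaptosome RNA (TPM, a length-corrected level scaled to the same sum per library).

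The other type IV genes were far less abundant. Col4a5, a chain of specialised basement membranes, had 104 and 97 counts and was 1.46-fold higher (1.09 to 1.94). Its neighbour on the X chromosome, Col4a6, had 15 and 27 counts and was 2.81-fold higher (1.44 to 5.68), which passed the rule of size on few counts. Col4a4 had 11 and 9 counts, just inside the minimum, with an interval from 0.468 to 3.39. Col4a3, just outside it, had 13 and 4. Summed over the class, type IV collagen counts were 2638 and 1281, 1.32-fold lower, although the median of the 5 measured genes was 0.35. The sum follows Col4a1 and Col4a2, and the median follows the rare chains.

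For Col4a5, the files listed 2 transcripts that differ at the 5' end. In one, a single exon spans chromosome X 141475419 to 141475815 (397 bases), and in the other that stretch is spliced into exons of 48 and 177 bases. All 104 counts of the homogenate were assigned to the spliced form. In the synaptosome fraction 23 counts were assigned to the spliced form and 74 to the unspliced one. These are estimates of how reads divide between near-identical models, and the error of that division was not tested.

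Most laminin mRNAs lay above the typical gene. Of 11 genes, 8 had log2 ratios above 0, with a median of 0.45, where the median of all genes was -0.02. Under library totals 4 of the 11 were above 0. The rule of size called 3 laminins higher (27.3%), while 12.6% of measured genes passed it upward. It called 0 laminins lower, and with 11 genes that is close to the 9.37% of measured genes that passed it downward. Summed counts were 2790 and 2744, a ratio of 1.54 (1.46 to 1.62). The laminin sum was 2.03-fold higher relative to the type IV collagen sum (1.86 to 2.21), a contrast within the libraries that does not depend on scaling.

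The alpha chain determines where a laminin sits and which receptors it binds, and the 5 alpha genes spread widely. Lama2 (chromosome 10, 26981285 to 27616942), the alpha chain of muscle and of the astrocyte side of brain vessels, had 273 homogenate counts and 411 synaptosome counts, 2.35-fold higher (2.01 to 2.75). Lama1, a pial and early embryonic chain, had 75 and 67 counts with a ratio of 1.39 (0.988 to 1.97). Lama4 and Lama5 are the alpha chains of endothelial basement membrane. Lama4 had 190 and 142 counts with a ratio of 1.17 (0.932 to 1.46). Lama5 had 222 and 85 counts and was 1.67-fold lower (1.3 to 2.17). Lama3, an epithelial chain, had 146 and 48 counts and was 1.95-fold lower (1.4 to 2.76). Relative to Lama5, Lama2 was 3.93-fold higher (2.91 to 5.34), and relative to Lama4 it was 2.01-fold higher (1.53 to 2.65). These contrasts, like the other pairs of chains compared below, were chosen after the values were seen.

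Among beta and gamma chains, Lamb1 (chromosome 12, 31265294 to 31329639) had 395 and 558 counts and was 2.21-fold higher (1.94 to 2.52). Lamb2, the beta chain of the neuromuscular junction and of vessel walls, had 462 and 404 counts and was 1.37-fold higher (1.19 to 1.56). Lamb1 was 1.62-fold higher relative to Lamb2 (1.34 to 1.95). The order of the pair thus turned between libraries on the length-corrected scale: Lamb1 was at 0.832 of Lamb2 in homogenate RNA and at 1.34 of it in synaptosome RNA. Lamc1, the common gamma chain, had 661 and 578 counts and was 1.37-fold higher (1.22 to 1.53). Its ratio did not differ from that of Lamb2 beyond counting error (1.00, 0.837 to 1.19). Lama2 and Lamb1 also had ratios that were alike within counting error (1.07, 0.868 to 1.31).

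Lamb3, known as the beta partner of Lama3 in epithelial laminin, had 30 and 15 counts with an interval from 0.390 to 1.5. Lamc3, a gamma chain of brain and retina, had 84 and 95 counts and was 1.77-fold higher (1.3 to 2.40). Under library totals Lama1, Lama4, Lamb2 and Lamc1 fell below 0, whereas Lama2, Lamb1 and Lamc3 stayed above it.

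The multiplexins, Col15a1 and Col18a1, sit in basement membrane zones and release endostatin-like fragments. Col15a1 had 193 and 77 counts and was 1.61-fold lower (1.23 to 2.12). Col18a1 had 140 and 81 counts, with an interval that includes 1 (0.678 to 1.2). Added to the type IV collagens and laminins, they moved the median to 0.40.

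**Figure D2:**
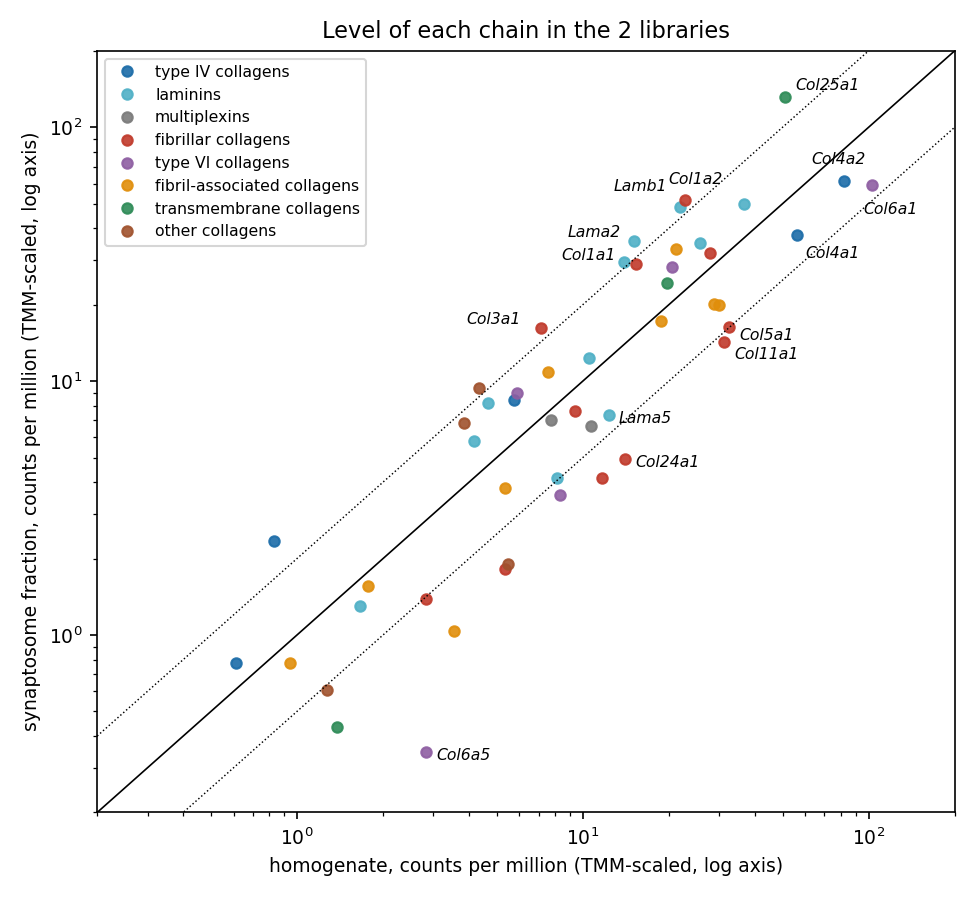
TMM-scaled CPM of each measured chain in the homogenate (x axis, log) and the synaptosome fraction (y axis, log), coloured by class; the solid line marks equal levels and the dotted lines 2-fold. Col25a1 lies highest in the synaptosome fraction and Col6a1 farthest right in the homogenate, while Col1a1, Col1a2, Col3a1, Lama2 and Lamb1 lie near or above the upper 2-fold line.

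Fibrillar collagens formed distinct groups. The chains of types I and III, which make up the bulk of fibrils in connective tissue, were all above the typical gene. Col1a1 (chromosome 11, 94936270 to 94951856) had 277 homogenate counts and 334 synaptosome counts, 1.88-fold higher (1.60 to 2.22) and short of the 2-fold rule. Col1a2 (chromosome 6, 4505697 to 4541543) had 412 and 595 counts, 2.25-fold higher (1.99 to 2.56). Col3a1 (chromosome 1, 45311538 to 45349706) had 129 and 187 counts, 2.26-fold higher (1.80 to 2.85). The partner chains of type I collagen had ratios alike within counting error: that of Col1a1 was 0.835 times that of Col1a2 (0.678 to 1.03). Under library totals these 3 genes remained above 0.

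The remaining 8 fibrillar genes had a median of -1.08 and held all 5 fibrillar genes that were lower by the rule of size. In the whole class of 11 genes, 5 were lower (45.5%) and 2 higher (18.2%), against 9.37% and 12.6% of all genes. Col11a1, which sets fibril diameter in cartilage, had 563 and 164 counts and was 2.20-fold lower (1.84 to 2.63). Col24a1 and Col27a1 encode later-branching fibrillar collagens. Col24a1 had 253 and 57 counts and was 2.84-fold lower (2.13 to 3.86), and Col27a1 had 211 and 48 counts and was 2.82-fold lower (2.05 to 3.94). Col5a3 had 96 and 21 counts and was 2.93-fold lower (1.81 to 4.94). Col2a1, the collagen of cartilage, had 51 and 16 counts and was 2.04-fold lower (1.15 to 3.84). Its homogenate counts were assigned to both listed transcripts, 26 to the form with 53 exons and 25 to the form with 54, and its synaptosome counts only to the form with 53. Col5a1, which starts the assembly of type I fibrils, had 587 and 188 counts and was lower by 2.00-fold (1.69 to 2.37), a ratio just short of the rule. Col5a2 had 170 and 88 counts with an interval from 0.618 to 1.05, and Col11a2 had 502 and 368 counts with an interval from 0.998 to 1.31. Relative to the summed counts of these 8 genes, those of types I and III were 3.49-fold higher (3.10 to 3.94). This grouping was made after the values were seen, so its median and contrast follow in part from that choice.

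The mRNAs of both type I chains share a sequence at the start codon, shown here because both genes stood apart from most fibrillar genes by their ratios. It is known as a stem-loop, conserved in vertebrates, that the RNA-binding protein Larp6 recognises. The lines give the 15 bases before and the 15 bases from the A of the start codon, 5' to 3', from GENCODE M21 transcripts on GRCm38 (mm10). Capitals mark the start codon and, where both are present, the outer arms GTCT and AGAC, each the reverse complement of the other, 7 bases apart and directly before the start codon.
Col1a1, chr11:94936354-94936383, plus strand: GTCTagggtctAGACATGttcagctttgtg
Col1a2, chr6:4505825-4505854, plus strand: GTCTaagtggtAGACATGctcagctttgtg
Col5a2, chr1:45502900-45502929, minus strand: GTCTcatatttAGACATGatggcaaactgg
Col2a1, chr15:98004479-98004508, minus strand: gcctcgcggtgagccATGatccgcctcggg
Col5a1, chr2:27886801-27886830, plus strand: gcgcaccccgccggcATGgacgtacacacc
Col11a1, chr3:114030886-114030915, plus strand: gcgtggggcttggagATGgagccctggtcc

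Over these 30 bases Col1a2 was identical to Col1a1 at 25 positions, the start codon included. Col2a1 was identical to it at 18 positions and Col5a2 at 15. Both arms at these positions were found in 4 of the 49 chains. Searched on the transcript strand in 20630 coding genes, with the longest coding transcript of each, they were found in 4 genes (0.0194%). The arms were defined after the sequences had been seen. Col5a2 carries the arms without the coding stretch that the type I chains share, and had a log2 ratio of -0.31. Larp6 mRNA had 570 homogenate counts and 185 synaptosome counts, 1.97-fold lower (1.67 to 2.34).

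The classes differed less by summed counts than by medians. Fibrillar counts summed to 3251 and 2066, a ratio of 0.992 (0.939 to 1.05), and type IV collagens and laminins to 5428 and 4025, a ratio of 1.16 (1.11 to 1.21). By sums, basement membrane chains were 1.17-fold higher relative to fibrillar chains (1.09 to 1.25), against a difference of medians of 1.45 on the log2 scale. Leaving out types I and III brought the contrast of sums to 1.90 (1.74 to 2.07). The size of the difference between the classes thus depended on whether genes or counts were weighted equally.

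Type VI collagen makes beaded microfilaments between basement membranes and the interstitial matrix, and its classical chains, Col6a1, Col6a2 and Col6a3, did not move together. Col6a1 (chromosome 10, 76708792 to 76726044) had more counts in the homogenate than any other chain, 1852, against 684 in the synaptosome fraction, and was 1.73-fold lower (1.59 to 1.90). Col6a2 had 371 and 325 counts and was 1.37-fold higher (1.17 to 1.59), and Col6a3 had 106 and 104 counts and was 1.53-fold higher (1.16 to 2.03). Under library totals the log2 ratio of Col6a2 fell to -0.041, and that of Col6a3 stayed above 0, at 0.12. Relative to Col6a1, Col6a2 was 2.37-fold higher (1.99 to 2.83), while Col6a3 and Col6a2 had ratios alike within counting error (1.12, 0.812 to 1.54). Per transcript length, Col6a1 stood at 4.67 times Col6a2 in homogenate RNA and at 1.97 times in synaptosome RNA. Of the later-found chains, Col6a4 had 150 and 41 counts and was 2.34-fold lower (1.65 to 3.40), and Col6a5 had 51 and 4 counts and was 8.17-fold lower (3.00 to 31.1). Col6a6, with 8 and 4 counts, was under the minimum.

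Fibril-associated collagens decorate the surface of fibrils or link them to other matrix. Of 9 genes, 0 were higher and 1 was lower by the rule of size (11.1%), with a median of -0.27. Among all genes, 12.6% were higher and 9.37% lower. Col9a3 had 382 and 384 counts and was 1.57-fold higher (1.36 to 1.81), and its partner Col9a2 had 136 and 125 counts and was 1.44-fold higher (1.12 to 1.84), with ratios alike within counting error (1.09, 0.818 to 1.46). Col9a1, the remaining chain of that trimer, had 17 and 9 counts, with an interval from 0.325 to 1.96. Exons of Col9a3 overlap those of Tcfl5 on the other strand over 229 bases, 8.05% of its exon length. Tcfl5 itself had 8 and 17 counts. The kit keeps strand, but whether the counting used it is not stated, so the Col9a3 values carry that uncertainty.

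Col16a1 had 540 and 230 counts and was 1.5-fold lower (1.29 to 1.76). Col19a1, which is made by a subset of neurons, had 519 and 233 counts and was 1.43-fold lower (1.22 to 1.67). Col22a1, a collagen of tissue junctions, had 64 and 12 counts and was 3.42-fold lower (1.83 to 6.95). Col12a1, with 338 and 200 counts, Col14a1, with 32 and 18, and Col20a1, with 96 and 44, had intervals that include 1.

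The transmembrane collagen Col25a1 had the highest level of all chains in the synaptosome fraction. Col25a1 (chromosome 3, 130180845 to 130599883), a neuronal collagen whose shed ectodomain is found in amyloid plaques, had 918 homogenate counts and 1526 synaptosome counts, 2.60-fold higher (2.39 to 2.82). Its level was 19.8 TPM in the homogenate library and 35.2 TPM in the synaptosome library, on a scale that the TMM factors do not enter. The log2 ratio of Col25a1 was 0.83 by TPM, against 1.38 with TMM. Of its 3 listed transcripts, the forms with 36 and 38 exons were assigned 378 and 786 counts, and 490 and 721 counts. The remaining form, which ends in an exon of its own (chromosome 3, 130595657 to 130599883), was assigned 50 and 19. The division of reads among these forms was not tested.

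Other transmembrane collagens differed from it. Col23a1 had 356 and 282 counts and was 1.24-fold higher (1.05 to 1.45), a ratio below 1 under library totals. Col17a1, the hemidesmosome collagen of skin, had 25 and 5 counts and was 3.20-fold lower (1.2 to 10.7). Col13a1 had 12 and 3 counts and was under the minimum. Among short-chain collagens, Col8a1, a component of vessel walls and of Descemet's membrane, had 78 and 109 counts and was 2.18-fold higher (1.62 to 2.96), and its partner Col8a2 had 69 and 79 counts and was 1.79-fold higher (1.28 to 2.51). Col7a1, which forms anchoring fibrils, had 99 and 22 counts and was 2.88-fold lower (1.80 to 4.81). Col28a1 had 23 and 7 counts with an interval that includes 1 (0.172 to 1.14), and Col10a1, with 2 and 9 counts, was under the minimum.

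The make-up of the chain mRNA pool changed accordingly. As a share of the summed TPM of all 54 chains, laminins made up 15.4% of homogenate and 22.1% of synaptosome RNA, and transmembrane collagens 7.39% and 13.7%. Type IV collagens made up 15.3% and 10.5%, and type VI collagens 22.9% and 14.9%. Fibrillar collagens held nearly the same share, 19.3% and 19.5%, within which types I and III went from 6.13% to 11.8%. By level, Col6a1 (74.6 TPM), Col4a2 (36.6 TPM), Col4a1 (24.2 TPM), Col9a3 (21.7 TPM) and Col25a1 (19.8 TPM) led the homogenate. Col25a1 (35.2 TPM), Col6a1 (29.6 TPM), Col9a3 (23.4 TPM), Col1a2 (19.8 TPM) and Col4a2 (18.8 TPM) led the synaptosome fraction.

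**Figure D3:**
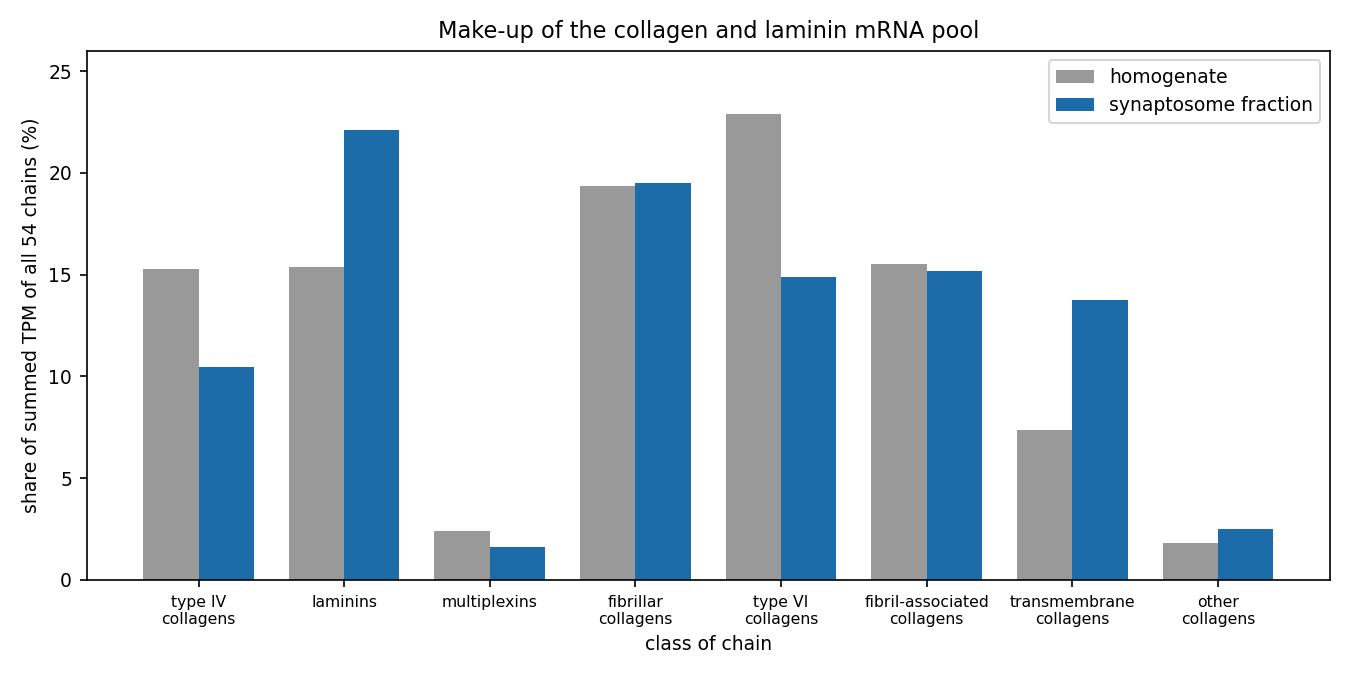
Share of the summed TPM of all 54 chains (y axis, percent) held by each class (x axis) in the homogenate library (grey) and the synaptosome library (blue), 1 each and so without error bars. Laminins went from 15.4% to 22.1% and type VI collagens from 22.9% to 14.9%, while fibrillar collagens stood at 19.3% and 19.5%.

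Proteins that join the basement membrane network gave mixed values. Of 11 measured partners, 3 passed the rule of size upward (27.3%) and 1 downward (9.09%), against 12.6% and 9.37% of all genes, and their median was 0.44. Nid1, which links laminin to type IV collagen, had 237 and 206 counts and was 1.36-fold higher (1.12 to 1.64), while the related Nid2 had 109 and 60 counts with an interval that includes 1 (0.616 to 1.19). Hspg2, perlecan, had 187 and 146 counts with an interval from 0.975 to 1.52. Agrn, the proteoglycan agrin, had 3512 and 2508 counts, more than any chain, and was 1.12-fold higher (1.06 to 1.17). Under library totals, which move every log2 ratio by -0.49, Nid1, Hspg2 and Agrn fell below 0. Sparc, a collagen-binding protein that is abundant in astrocytes and endothelium, had 8213 and 28110 counts and was 5.34-fold higher (5.21 to 5.48). Tinagl1, a matrix protein of vessels, had 72 and 13 counts and was 3.55-fold lower (1.95 to 6.98).

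Enzymes and chaperones that modify, fold, trim and cross-link collagen had 3 of 25 measured members higher (12%, against 12.6% of all genes) and 0 lower, with a median of 0.42. P4hb, a subunit of prolyl 4-hydroxylase and a disulfide isomerase of every cell, had 2058 and 2609 counts and was 1.98-fold higher (1.87 to 2.10). P4ha3, a catalytic subunit of the same enzyme, had 106 and 150 counts and was 2.21-fold higher (1.71 to 2.86). Ppib, a prolyl isomerase, had 1637 and 1199 counts and was 1.14-fold higher (1.06 to 1.23), a ratio below 1 under library totals. Leprel2, a prolyl 3-hydroxylase now named P3h3, had 392 and 146 counts and was 1.72-fold lower (1.42 to 2.09). Lox and Loxl4, of the lysyl oxidase family, were under the minimum.

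The 15 measured receptors for collagen and laminin had a median of 0.77. The rule of size was passed upward by 5 of them (33.3%), above the 12.6% seen genome-wide. Downward it was passed by 2 (13.3%), which on so few genes is near the genome-wide 9.37%. Dag1, dystroglycan, which binds the globular end of Lama2, had 1064 and 1830 counts and was 2.69-fold higher (2.49 to 2.90). Ddr2, a receptor tyrosine kinase for fibrillar collagen, had 226 and 412 counts and was 2.85-fold higher (2.41 to 3.36), and the related Ddr1, which is made by oligodendrocytes, had 1444 and 1488 counts and was 1.61-fold higher (1.5 to 1.73). Itga1, an integrin subunit of vessels that binds collagen, had 79 and 10 counts and was 5.06-fold lower (2.61 to 11.0).

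Marker lists of the cells that make these chains differed in their ratios. Among all genes, the same rule gave 12.6% higher and 9.37% lower. Endothelial markers were lower in 12 of 16 cases (75%) and higher in 0. Their median was -2.55 and their summed levels were 346 and 103 TMM-scaled CPM. Slco1a4, an endothelial transporter, was 15.0-fold lower (11.1 to 20.7) and Slco1c1, another, 1.22-fold lower (1.10 to 1.35). The log2 ratios of 15 of the 16 markers were below those of both Col4a1 and Col4a2, which were 1.49-fold and 1.34-fold lower. Mural markers had 5 of 11 lower (45.5%) and 1 higher (9.09%), with a median of -0.84 and summed levels of 161 in either library. The higher one was Cspg4, at 3.09-fold (2.64 to 3.61), which is also in the list for oligodendrocyte precursors, and the lowest was Kcnj8, a pericyte channel, at 10.4-fold lower (3.88 to 39.3). Fibroblast and meningeal markers had 2 of 12 higher (16.7%, near the share of all genes) and 0 lower. Their median was 0.08 and their summed levels were 212 and 265. The extremes were Fbln1, which encodes fibulin 1, at 2.60-fold higher (2.07 to 3.28), and Mgp, an inhibitor of calcification, at 1.98-fold lower (1.56 to 2.53). Astrocyte markers were higher in 10 of 12 cases (83.3%), with a median of 1.58 and summed levels of 5994 and 23176. Gfap was at one end, 5.54-fold higher (5.34 to 5.74), and Gja1 at the other, 1.77-fold higher (1.68 to 1.86).

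The other lists lay between these, and their counts stand beside the same shares of all genes, 12.6% higher and 9.37% lower. Oligodendrocyte precursor markers had 3 of 7 higher (42.9%) and 0 lower, with a median of 0.99. They ran from Sox10, 1.65-fold lower (1.46 to 1.87), to Tnr, 3.27-fold higher (2.97 to 3.62). Microglial markers had 4 of 10 higher (40%) and 0 lower, with a median of 0.82. They ran from P2ry12, whose interval includes 1 (0.898 to 1.2), to Tyrobp, 4.5-fold higher (3.75 to 5.42). Neuronal markers had 2 of 12 higher (16.7%, near the share of all genes) and 4 lower (33.3%), with a median of 0.05. Camk2a was 3.61-fold higher (3.56 to 3.65) and Snap25 was 2.67-fold lower (2.62 to 2.73). Choroid plexus and ependymal markers had 0 of 8 higher and 1 lower (12.5%, near the share of all genes), with a median of -0.34. They ran from Ttr, 2.89-fold lower (2.75 to 3.04), to Kl, 1.70-fold higher (1.42 to 2.03). No marker of these 8 lists was at 0 in either library. The part of these cell types in the ratios of the chains was not tested.

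**Figure D4:**
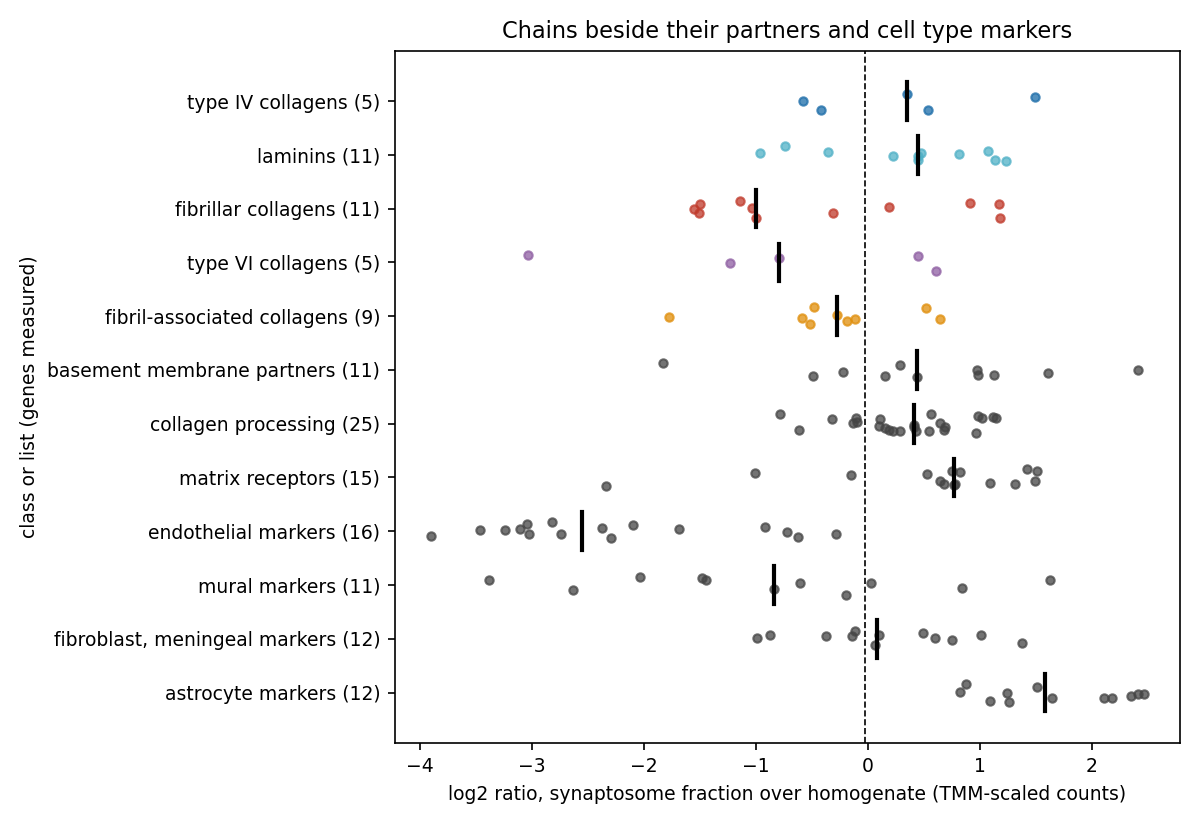
Log2 ratios (x axis, synaptosome fraction over homogenate) of the 5 larger classes of chains and of partner, processing, receptor and cell type marker lists (y axis, with the number of genes measured); points are genes, black bars medians and the dashed line the median of all genes at -0.02. Fibrillar collagens and endothelial markers have medians of -1.0 and -2.55, and astrocyte markers a median of 1.58.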

How the data were processed

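The labels describe 2 libraries from a stranded mRNA kit, read at 100 bases. The authors deposited expected counts and TPM for each RefSeq transcript of each library, and a table with a signal per gene. Tools named in the submitters' processing notes, without a role, were edgeR 3.0.6, RSEM 1.2.5, TopHat 1.3.3 and FastQC, with mm10 as the genome build; the aligner and the counter are not stated there. The deposited signal is, from its values, the gene's count times a factor per library.

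Here expected counts were summed per gene symbol and rounded, and scaled with TMM (edgeR 4.0.16, R 4.3.3; factors 1.186 and 0.843). Ratios carry exact Clopper-Pearson 95% intervals given the summed count. They cover counting error only, and may be too narrow even for that, since PCR copies are not independent molecules. Contrasts of ratios are conditional odds ratios with exact intervals. Of the 54 chains, 42 had gene sums that were whole within 0.005 in both libraries, and 48 had 1 transcript. Whole sums do not show division between a gene's own transcripts, as in Col25a1. Chains without whole sums include the abundant Col4a1, Col4a2 and Col1a2. Interval and rule were run on simulated counts with counting error alone and known library sizes, which checks the calculation and not other sources of error. Chains, classes and lists were chosen with earlier results of these data known. Named genes were the chains (1 is counted in its class and not reported here), and in each list the 2 most abundant, the highest and the lowest ratio, with Nid1, Nid2, Hspg2, Agrn and Sparc; of markers the extremes are printed, and others, Larp6 among them, were chosen after their values were seen. Calculations used Python 3.11.15, numpy 2.4.6, scipy 1.17.1 and pandas 2.3.3. Alternatives were other scalings, count minimums of 10 and 100, a 1.5-fold rule, TPM, the deposited signal and changes in class membership.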

Additional observations from a re-analysis of the deposited data

How the results depend on the processing

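No paired analysis was possible because each fraction had 1 library. With library totals, chains counted as higher went from 8 to 0 and as lower from 10 to 19. The basement membrane median went from 0.45 to -0.044 and its summed log2 ratio from 0.21 to -0.28, and the fibrillar values to -1.49 and -0.50. Type IV collagen sums went from -0.40 to -0.89 and laminin sums from 0.62 to 0.13. Median-of-ratios size factors gave medians of 0.48 and -0.97 and turned the fibrillar sum from -0.01 to 0.016. TPM gave medians of -0.089 and -1.52 and a difference of 1.43, and the deposited signal gave 0.46 and -0.99. The difference of medians was 1.45 under every scaling of counts, which is fixed in advance because such a scaling shifts every log2 ratio alike. With a minimum of 100 counts, 6 chains were lower, the fibrillar median was -0.65 and the difference 1.10. A 1.5-fold rule gave 13 higher and 16 lower. With multiplexins the basement membrane median was 0.40 and the difference 1.4. Without the most abundant member the summed log2 ratio was 0.39 for basement membrane (without Col4a2) and -0.31 for fibrillar chains (without Col1a2). Without types I and III, a choice made after seeing the data, the fibrillar median was -1.08, its sum -0.71 and the difference 1.53. Among all 50 chains, 8 changed sign under library totals, 10 under TPM and 0 under the deposited signal. Of the 50 chains, 10 had under 100 summed counts, and 12 had intervals that include 1.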

Other observations

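Genes annotated to the basement membrane in the deposited table, other than the chains themselves, numbered 62. Of the 55 with at least 20 counts, 19 (34.5%) passed the rule of size upward and 3 (5.45%) downward, against 12.6% and 9.37% of all genes, and their median log2 ratio was 0.62. The annotation was chosen after other values had been seen. Across the 50 chains, the log2 ratio had a Pearson correlation of 0.30 and a Spearman correlation of 0.27 with the log10 of the summed count, and -0.21 and -0.19 with the log10 of transcript length, where all points share the same 2 libraries. Genes with a longest transcript of at least 4 kb, 4367 in all, had a median of 0.02.

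Neighbouring chain genes had unlike ratios in some pairs and closer ones in others, and the pairs given here are examples. Col3a1 and Col5a2 lie 24625 bases apart on chromosome 1 and had log2 ratios of 1.18 and -0.31. Col6a1 and Col6a2, 85388 bases apart on chromosome 10, had -0.79 and 0.45. Col4a1 and Col4a2, which share a start region, had -0.58 and -0.42. Col19a1 and Col9a1, 4945 bases apart on chromosome 1, had -0.51 and -0.27, the latter on 17 and 9 counts.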
